A study of Mus musculus with 6 samples.

Results

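Paneth cells store antimicrobial proteins in granules at the base of the small intestinal crypt, and 9 genes of that granule content are described here: Lyz1, Mmp7, Ang4, Itln1, Defa17, Defa21, Defa22, Defa24 and Defa30. They were found by matching the Ensembl gene IDs of the deposited tables to mouse symbols, which gave 9 of the 51912 genes listed. The matching itself used names alone. Expression was measured by RNA-seq of sorted epithelial cells from the small intestine of C57BL/6 mice. The antigen-free (AF) mice lacked foreign antigens of both microbial and dietary origin, the germ-free (GF) mice carried no microbes, and the specific pathogen free (SPF) mice had a microbiota without certain pathogens. Each group had 2 libraries, which are AF replicates 2 and 3, GF replicates 1 and 3, and SPF replicates 3 and 4. No genetic change, age or diet composition is given in the sources used here, and nothing says that a group's libraries came from separate animals. The p-values therefore measure the spread of these libraries, which may be technical.

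Paneth cells release their granules into the crypt lumen, where the contents act on bacteria and limit microbial growth near the stem cells. Alpha-defensins, called cryptdins in mice, are small peptides folded by disulfide bonds between cysteines that damage microbial membranes. In mice they are made as inactive precursors and are cut to their active form by the metalloproteinase matrilysin, the product of Mmp7. Lysozyme, the product of Lyz1, cleaves the peptidoglycan of bacterial cell walls, Ang4 encodes a secreted ribonuclease of the angiogenin family with antimicrobial activity, and Itln1 encodes a lectin that binds microbial sugars.

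The 5 alpha-defensin genes lie on chromosome 8 on the plus strand of GRCm38, within a cluster of 22 genes named Defa, and each has 2 exons and 282 coding bases. The coding part of their last exon is shown because it holds the cysteines of the peptide and because the similarity of these stretches bears on how reads could be assigned. The stretches lie at chr8:21656532-21656641 (Defa17), chr8:21735268-21735377 (Defa24), chr8:21135394-21135503 (Defa30), chr8:21026314-21026423 (Defa21) and chr8:21163046-21163155 (Defa22), all in GENCODE M21 transcripts. Each has 110 bases to the stop codon, and capitals mark the 6 cysteine codons.
Defa17: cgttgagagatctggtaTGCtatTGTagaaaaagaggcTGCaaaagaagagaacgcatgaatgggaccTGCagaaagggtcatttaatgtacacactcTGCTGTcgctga
Defa24: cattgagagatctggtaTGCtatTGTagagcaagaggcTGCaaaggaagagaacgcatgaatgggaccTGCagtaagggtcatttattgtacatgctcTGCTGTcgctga
Defa30: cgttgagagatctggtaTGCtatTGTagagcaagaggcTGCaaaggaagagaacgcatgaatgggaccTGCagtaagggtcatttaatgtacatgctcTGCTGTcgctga
Defa21: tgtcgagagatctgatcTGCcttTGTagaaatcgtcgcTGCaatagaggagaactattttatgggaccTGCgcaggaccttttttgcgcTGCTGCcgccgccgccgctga
Defa22: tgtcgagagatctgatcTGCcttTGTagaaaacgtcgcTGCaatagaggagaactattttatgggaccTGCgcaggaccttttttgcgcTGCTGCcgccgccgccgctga
These sequences fell into 2 types. Counting from 1 at the first base shown, Defa21 and Defa22 differed by the single substitution T32A, and Defa24 and Defa30 by A2G and T87A. Over the whole coding sequence Defa21 and Defa22 were 99.3% identical, Defa24 and Defa30 98.6%, and Defa17 and Defa30 97.2%, whereas identity between the 2 types was 80.8 to 82.5%.

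That likeness sets how firmly each gene's count can be read. No source used here states the read length, so windows of 50 bases were compared between transcripts. Of the 50-base windows of the Defa17 transcript, 92% also occur in another gene, in each case Defa3. The shared part was 74.9% for Defa22, 72.9% for Defa21, 52.4% for Defa30 and 28.1% for Defa24. With windows of 75 bases it was 91.3% for Defa17, 56.2% for Defa22, 56.4% for Defa21, 20.7% for Defa30 and 6.67% for Defa24. With 50 bases it was lower for the other 4 genes, at 16.1% for Lyz1, all of it shared with the macrophage lysozyme gene Lyz2, 7.36% for Mmp7, 4.7% for Ang4 and 1.01% for Itln1, and with 75 bases it was 0 to 6.22% for these 4. RSEM, whose output columns the tables hold, splits ambiguous reads between genes by estimate, and its posterior standard deviation says how sure that split is. In libraries with at least 10 counts of the gene, that standard deviation was 1.5 to 28.4% of the count for Defa17, up to 3.2% for Defa21 and 2.25% for Defa22, up to 2.07% for Defa30 and at most 0.0738% for Defa24. It was at most 0.00595% for Lyz1 and Mmp7 and 0 for Ang4 and Itln1. Defa21 and Defa22 had the same standard deviation in every library, for example 49.8 counts each in GF replicate 1. Their single values are therefore less certain than their sum, and Defa17 is uncertain against Defa3.

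Upstream stretches are shown because Paneth cell genes are known as targets of Wnt signalling, which acts through TCF/LEF factors. Of the 9 genes, 7 had an entry in the RefSeq table of promoters (GRCm38.p6, 250 bases before to 50 after the start), Defa17 and Defa24 being the other two. The words CTTTGAT and CTTTGTT, forms of the TCF/LEF motif that do not overlap each other, were searched on both strands. A match was present in 4 of the 7 windows and in 9.33% of the 32851 promoter windows searched, and 2 or more matches were present in the windows of Defa21 and Defa22 and in 0.551% of all windows. Defa21 and Defa22 had identical windows, so they count as 1 sequence, shown here for the 150 bases before the start of Defa22 (chr8:21162127-21162276) beside those of Defa30 (chr8:21134500-21134649), both on the plus strand. The start is that of the RefSeq table. For Defa30 GENCODE M21 places the gene from base 21134642, so the last bases shown lie inside it by that annotation. Capitals mark the matches, which are in reverse orientation. For Mmp7 (chr9:7692075-7692104, plus strand) the 30 bases around the match, which begins at base 5 after the start, are given.
Defa22 upstream: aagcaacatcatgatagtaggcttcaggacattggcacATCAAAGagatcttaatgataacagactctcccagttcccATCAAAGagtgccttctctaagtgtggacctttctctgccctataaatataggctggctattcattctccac
Defa30 upstream: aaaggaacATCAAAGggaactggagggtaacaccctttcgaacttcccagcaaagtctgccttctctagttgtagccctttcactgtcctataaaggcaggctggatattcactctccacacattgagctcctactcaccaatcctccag
Mmp7 start: ccagcccctgtcaggaaacATCAAAGtagc
The windows of Lyz1, Ang4 and Itln1 held neither word. A match is a description of letters and shows no binding.

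The libraries held 16109488 to 19417054 expected counts, and 3 counts, the limit below which a level is treated as not detectable, were worth 0.109 to 0.236 CPM (counts scaled to library size). Enterocyte markers, 15 of 15 of which were detected, summed to 25084 to 68651 CPM. The 12 markers of intraepithelial lymphocytes and T cells in the tables summed to 19.2 and 14.4 CPM in AF, 37.5 and 354 CPM in GF, and 209 and 78.1 CPM in SPF libraries. All 11 of them that were tested had lower fitted levels in AF than in GF mice (median log2 fold change -3.15). None was called, and 10 had an unadjusted p below 0.05 in edgeR, against 3.6% of all genes. The GF libraries differed widely, the high sum being that of replicate 3. For AF versus SPF all 11 were also lower (median -3.09), none called and 5 with an unadjusted p below 0.05 in edgeR, against 11.3%. Markers of macrophages and neutrophils summed to 6.12 to 12.6 CPM. SPF replicate 4 stood apart in crypt genes. Its crypt stem cell markers lay 2.57 below their mean over the 6 libraries (median, log2 CPM), its goblet cell markers 2.10 below and its enterocyte markers 0.90 above. Each group's libraries carry a date-like mark of their own, so a batch by that mark and the group cannot be told apart.

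Lysozyme RNA differed widely between libraries of the same group and did not set the groups apart. In TPM, a transcript level scaled by length and library size, Lyz1 (chr10:117287797-117292868, minus strand) had 246 and 694 TPM in AF replicates 2 and 3, 2894 and 238 TPM in GF replicates 1 and 3, and 602 and 7.56 TPM in SPF replicates 3 and 4. GF replicate 1 was the highest and SPF replicate 4 the lowest, and the ranges of the 3 groups overlapped. The means were 470 ± 316 TPM in AF, 1566 ± 1878 TPM in GF and 305 ± 421 TPM in SPF mice (SD, n = 2 each). In such bulk samples fewer Paneth cells and less RNA per cell cannot be told apart. Lyz2, the related gene of macrophages, was at 0.146 to 2.71 CPM in the 6 libraries, against 9.53 to 2087 CPM for Lyz1.

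Mmp7 (chr9:7692090-7699585), the protease gene, was the least abundant of the 9 in TPM in 5 libraries, SPF replicate 4 excepted, where its 0.33 TPM equalled that of Defa21. It had 5.08 and 14.6 TPM in AF replicates 2 and 3, 8 and 75.1 TPM in GF replicates 3 and 1, and 39.9 and 0.33 TPM in SPF replicates 3 and 4. SPF replicate 3 exceeded both AF libraries and 1 of the GF libraries. The value in SPF replicate 4 rests on 5 counts.

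The ribonuclease gene Ang4 (chr14:51763878-51773590) had 62.1 and 130 TPM in AF, 495 and 52.7 TPM in GF, and 97.2 and 3.12 TPM in SPF libraries. The lectin gene Itln1 (chr1:171518122-171535294) had 117 and 328 TPM in AF, 1178 and 122 TPM in GF, and 304 and 15.6 TPM in SPF libraries. Both were highest in GF replicate 1 and lowest in SPF replicate 4, like Lyz1. On the TMM-scaled CPM used for the tests, Ang4 was the 1 gene of the 9 whose AF libraries (46 and 72.6 CPM) both lay above its SPF libraries (37.1 and 1.92 CPM). In TPM they overlapped.

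Defa24 (chr8:21734494-21735471) had the most TPM of the 9 genes in all 6 libraries, although in CPM, which is not scaled by length, Lyz1 exceeded it in AF replicate 2 and GF replicate 1 and Itln1 in SPF replicate 4. It had 1082 and 3152 TPM in AF replicates 2 and 3, 12125 and 1213 TPM in GF replicates 1 and 3, and 2808 and 39.9 TPM in SPF replicates 3 and 4. Its near-copy Defa30 (chr8:21134642-21135598) had 259 and 948 TPM in AF, 3859 and 454 TPM in GF, and 962 and 9.12 TPM in SPF libraries. Defa17 (chr8:21655780-21656735) had 173 and 582.5 TPM in AF, 1926 and 189 TPM in GF, and 420 and 3.91 TPM in SPF libraries, the last from 14.4 counts with a posterior standard deviation of 4.1 counts. All 3 genes of this sequence type were highest in GF replicate 1 and lowest in SPF replicate 4.

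Defa21 (chr8:21025545-21026516) and Defa22 (chr8:21162277-21163249) had a narrower spread in AF than the others and a wider spread in SPF mice. Defa21 had 141 and 205 TPM in AF, 1821 and 81.5 TPM in GF, and 412 and 0.33 TPM in SPF libraries. Defa22 had 146 and 214 TPM in AF, 2095 and 137 TPM in GF, and 485 and 0.66 TPM in SPF libraries. In SPF replicate 4 they had 1.33 and 2.67 expected counts, under the 3 counts taken as the limit, so that neither was detectable there. On the CPM scale the AF libraries differed 1.09-fold for Defa21 and 1.1-fold for Defa22, against 1.58 to 2.75-fold for the other 7 genes. The GF libraries differed 4.77 to 12.5-fold over the 9 genes, and the SPF libraries 12.1 to 74.4-fold over the 7 that were detected in both.

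**Figure D1:**
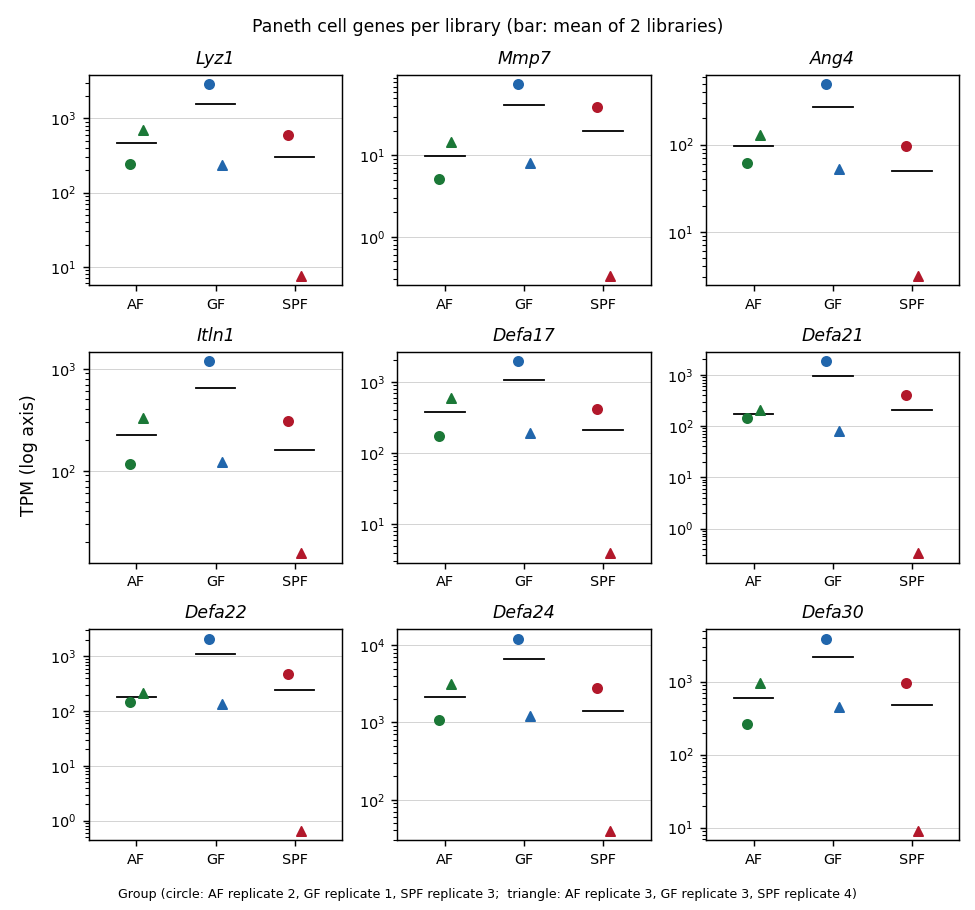
Level of each of the 9 genes in TPM (log axis) in every library, with the AF, GF and SPF groups from left to right, points for libraries and bars for the mean of 2. In each panel GF replicate 1 is highest and SPF replicate 4 lowest, at 2894 and 7.56 TPM for Lyz1.

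The comparison of AF with GF mice asks what the lack of dietary antigens adds where a microbiota is already absent. All 9 genes had lower fitted levels in AF mice, with log2 fold changes of -1.86 (Defa22) to -0.81 (Ang4) and a median of -1.04, against a median of -0.02 over all 13644 genes tested. None of the 9 passed edgeR's quasi-likelihood test (adjusted p = 1 for each, Benjamini-Hochberg over all tested genes), while 0.0147% of all genes were called. None was below an unadjusted p of 0.05 either, against 3.6% of all genes, and none had AF and GF libraries that did not overlap, against 33.6%. The direction rests on GF replicate 1: without it the median was 0.81, and all 9 genes were higher in AF mice. It was -0.60 without AF replicate 2, -1.72 without AF replicate 3, -1.85 without GF replicate 3 and -1.57 on library totals alone.

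The comparison of GF with SPF mice asks about the microbiota. All 9 genes had higher fitted levels in GF mice, with log2 fold changes of 1.03 (Mmp7) to 2.40 (Ang4) and a median of 2.14, against 0.02 over all genes tested. For Lyz1 the log2 fold change was 2.32 (SE 1.65, adjusted p = 0.791, edgeR), and for Defa24 it was 2.20 (SE 1.58, adjusted p = 0.794, edgeR). None of the 9 was called, against 0.0147% of all genes, none had an unadjusted p below 0.05, against 6.71%, and none had groups that did not overlap, against 33.8%. The median was 0.35 without GF replicate 1, with Mmp7, Defa21 and Defa22 then lower in GF mice. Leaving out SPF replicate 4 gave 1.16, leaving out GF replicate 3 gave 2.98 and leaving out SPF replicate 3 gave 6.97. In the last case all 9 genes had an unadjusted p below 0.05, as did 28.2% of all genes in that fit, and none an adjusted p below 0.05, against 2.58% of all genes. In limma on log2(TPM + 1) and log2(TPM + 0.1) the median was 3.53 and 3.61.

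The comparison of AF with SPF mice joins both conditions. Fitted levels were higher in AF mice for 8 genes and lower for Mmp7 (log2 fold change -0.39, SE 1.49, adjusted p = 0.949, edgeR), and the median of the 9 was 1.10, against 0.01 over all genes tested. Ang4 had the highest fold change, at 1.59 (SE 1.27, adjusted p = 0.68, edgeR), and Lyz1 had 1.28 (SE 1.59, adjusted p = 0.81, edgeR). None was called, against 0.044% of all genes, none was below an unadjusted p of 0.05, against 11.3%, and 1 gene had groups that did not overlap, against 44.6%. The median was 0.21 without SPF replicate 4, 0.42 without AF replicate 3 and 5.92 without SPF replicate 3. In the last case all 9 genes had an unadjusted p below 0.05, as did 27.8% of all genes in that fit, and none an adjusted p below 0.05, against 4.37% of all genes. It was 0.72 on library totals alone, and 2.45 and 2.46 in limma on log2(TPM + 1) and log2(TPM + 0.1). Tested for any difference at all between groups, none of the 9 was called (adjusted p of 0.839 to 0.955, edgeR), against 0.0293% of all genes. A p above the threshold does not show that these genes were alike in the 3 groups, since the standard errors of their log2 fold changes were 1.21 to 1.96. With no filter on low counts edgeR called 3 of the 9 for AF versus GF, against 1.16% of all genes. It called 8 for GF versus SPF, against 2.13%, 2 for AF versus SPF, against 3.53%, and 9 for any difference, against 4.12%. In that fit the fold changes were nearly unchanged and their standard errors were smaller. Lyz1 in GF versus SPF, for example, had 2.31 (SE 0.46), against 2.32 (SE 1.65) with the filter. On the CPM scale Lyz1 differed 6.77-fold between the GF libraries and 49.3-fold between the SPF libraries. Why the standard errors were smaller was not tested, and these calls are not read as differences between the groups.

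**Figure D2:**
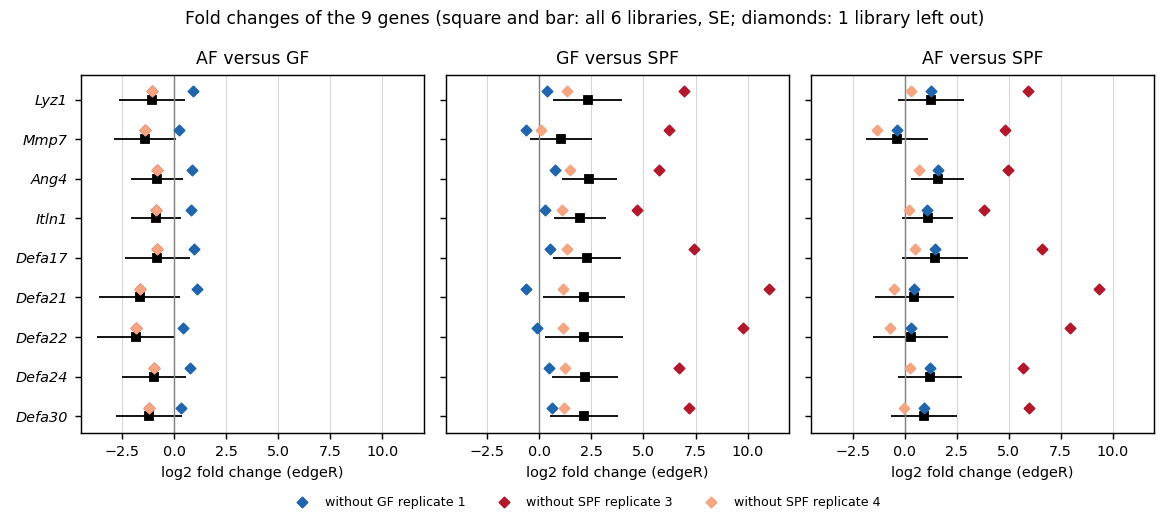
Log2 fold changes from edgeR for AF versus GF, GF versus SPF and AF versus SPF, with squares and bars for the fit to all 6 libraries and its standard error, and diamonds for fits without 1 library. All 9 squares lie below 0 for AF versus GF, and the 9 diamonds without GF replicate 1 lie above it; the diamonds of Defa21 and Defa22 without SPF replicate 3 rest on a library with fewer than 3 counts of each.

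The make-up of the defensin RNA was steadier than its amount. Among the expected counts of the 5 defensin genes, Defa24 held 61.3% and 63.5% in AF replicates 2 and 3, 56.9% and 60.1% in GF replicates 1 and 3, and 56.5% and 75.6% in SPF replicates 3 and 4. The last share comes from 214 counts (95% exact Clopper-Pearson interval 69.4 to 81.3%), and such intervals cover counting error only. Defa30 held 13.4 to 20.6% and Defa17 6.74 to 10.7% over the 6 libraries.

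These shares also differed between libraries of a group beyond counting error. Defa30, for example, held 13.4% (exact interval 12.7 to 14.2%) in AF replicate 2 and 17.4% (16.9 to 17.9%) in AF replicate 3, and Defa24 held 56.9% (56.6 to 57.2%) in GF replicate 1 and 60.1% (59.1 to 61.2%) in GF replicate 3.

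Defa21 and Defa22 ranged from 1.87 to 18.3% of the counts in sum, or from 8.43 to 18.3% without SPF replicate 4. They held 16.3% (exact interval 15.4 to 17.1%) and 8.43% (8.05 to 8.81%) of the 5 genes' counts in AF replicates 2 and 3. They held 18.3% (18.1 to 18.6%) and 10.8% (10.1 to 11.5%) in GF replicates 1 and 3, and 18% (17.5 to 18.6%) and 1.87% (0.512 to 4.72%) in SPF replicates 3 and 4. Libraries of a group differed by more than their intervals, and the 3 groups overlapped. The sum of the 2 genes is not touched by how reads were split between them.

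**Figure D3:**
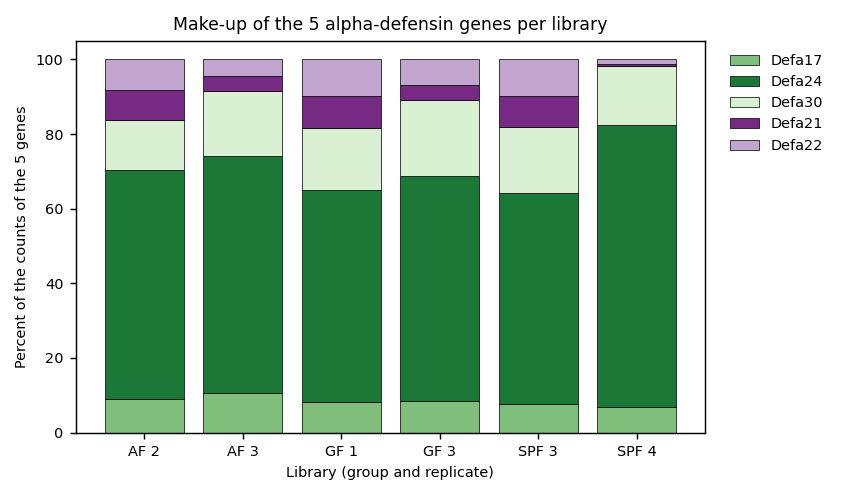
Share of each alpha-defensin gene in the expected counts of the 5 genes, in percent, for the AF, GF and SPF libraries from left to right. Defa24 holds 56.5 to 75.6% in every library, and Defa21 with Defa22 holds 1.87% in SPF replicate 4 and 8.43 to 18.3% in the others.

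Each gene was then set against Lyz1 in the same library, a scale chosen after the values were seen, as TPM per 100 TPM of Lyz1. Defa24 had 439 and 454 in AF, 419 and 509 in GF, and 466 and 527 in SPF libraries, so that its highest ratio was 1.26 times its lowest while its level in TPM ranged from 39.9 to 12125. Defa17 ranged 1.62-fold, Defa30 1.81-fold and Ang4 2.56-fold. Itln1 had 40.7 to 51 in 5 libraries and 206 in SPF replicate 4. Defa21 and Defa22 ranged more widely, with their low values, 4.37 and 8.73, in SPF replicate 4.

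On this scale the libraries of all 3 groups did not overlap for 1 of the 8 genes, Mmp7, as for 0.821% of the 13643 genes tested apart from Lyz1. For AF versus GF and for GF versus SPF Mmp7 alone of the 8 did not overlap, against 3.48% and 13.5% of all genes, and for AF versus SPF Mmp7, Itln1, Defa17 and Defa24 did not, against 30.3%. The exact Poisson intervals of the nearest AF and SPF values overlapped for Itln1, Defa17 and Defa24. They were 45.4 to 49.6 and 49.1 to 52 for Itln1, 65.2 to 75.9 and 66.2 to 73.4 for Defa17. For Defa24 they were 447 to 462 and 457 to 475. Mmp7 had 2.06 and 2.10 TPM per 100 TPM of Lyz1 in AF, 2.59 and 3.36 in GF, and 6.62 and 4.36 in SPF libraries. The value of 4.36 rests on 5 counts of Mmp7, for which the exact Poisson interval is 1.42 to 10.2 and spans all the others. The log2 ratio differed by -1.37 in AF and by -0.86 in GF from SPF mice (exact permutation p = 0.333 for each, two-sided, the smallest that 2 against 2 libraries allow, and 0.4 after adjustment over the 6 comparisons made of Mmp7 and Mptx2). In an edgeR fit with the log2 CPM of Lyz1 as a covariate, the log2 fold change of Mmp7 was -1.59 for AF versus SPF (SE 0.24, adjusted p = 0.0709), -1.09 for GF versus SPF (SE 0.25, adjusted p = 0.379) and -0.49 for AF versus GF (SE 0.22, adjusted p = 0.58). None of the 8 genes was called in that fit, against 0.249%, 0.0147% and 0.125% of all genes in these 3 comparisons. The fit was also chosen after the values were seen, so its p-values cannot serve as a separate test of the Mmp7 ratio. In SPF replicate 4 it rests on 5 counts of Mmp7 and 139 of Lyz1.

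**Figure D4:**
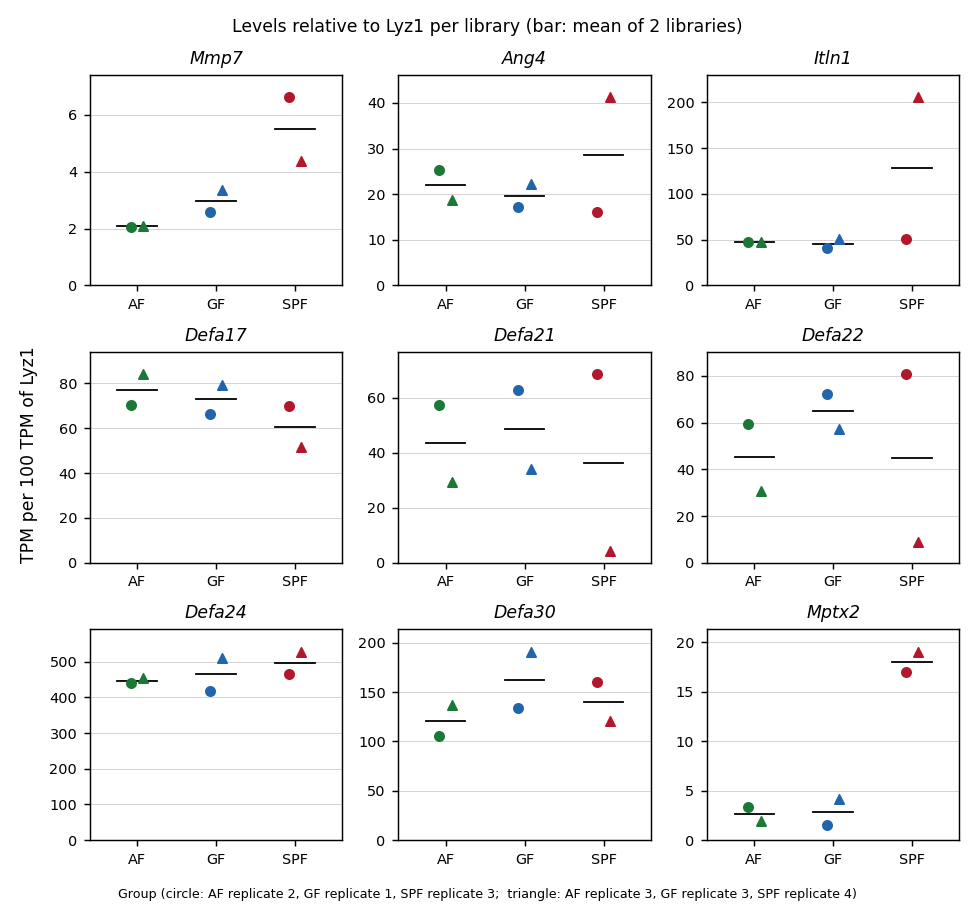
Level of each gene as TPM per 100 TPM of Lyz1 in the same library (linear axes from 0), for the AF, GF and SPF groups from left to right, with points for libraries and bars for the mean of 2. Defa24 stays between 419 and 527, Mmp7 runs from 2.06 in AF to 6.62 in SPF libraries, and Mptx2 from 1.52 in GF to 19.1 in SPF libraries.

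The rest of the defensin cluster followed the 9 genes. Of the 17 other genes named Defa, 13 passed the filter on low counts, and all 13 were lower in AF than in GF mice (median log2 fold change -1.67) and higher in GF than in SPF mice (2.18). For AF versus SPF 8 were higher and 5 lower (0.42). None was called or had an unadjusted p below 0.05 in any of the 3 comparisons. Defa23, the most abundant of them in GF replicate 1, had 515 and 1856 TPM in AF, 7171 and 725 TPM in GF, and 1335 and 9.17 TPM in SPF libraries. In SPF replicate 4, 11 of the 17 had 0 counts, against 2 in GF replicate 1 and 3 in each of the other libraries. Counts of the 22 Defa genes summed gave a log2 fold change of -1.30 for AF versus GF (SE 1.71), 2.24 for GF versus SPF (SE 1.76) and 0.93 for AF versus SPF (SE 1.70), with adjusted p of 1, 0.805 and 0.878 in edgeR.

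Over the whole cluster, 11 genes had transcripts nearer in sequence to Defa24 and 11 nearer to Defa22. Type here means only the nearer of these, and some margins were small. For 1 gene the identities to Defa24 and Defa22 were 64.3% and 63%, and for another 79.7% and 81.6%. The Defa22 type made up 30.5% and 18.1% of the summed Defa TPM in AF replicates 2 and 3, 34.5% and 27.5% in GF replicates 1 and 3, and 35.2% and 8.46% in SPF replicates 3 and 4. The library with the fewest Defa transcripts, SPF replicate 4, had the lowest share of this type, with 308 counts of all Defa genes together. Share and amount did not run together throughout, since AF replicate 2 had the higher share and the lower Defa TPM of the AF libraries. All Defa genes together had 3498 and 9556 TPM in AF, 47350 and 4311 TPM in GF, and 10617 and 77.7 TPM in SPF libraries.

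Other products of Paneth cells were divided. Of 16 listed genes 14 were tested. For AF versus GF 3 were higher and 11 lower (median log2 fold change -0.41), for GF versus SPF 11 were higher and 3 lower (0.84), and for AF versus SPF 9 were higher and 5 lower (0.39). None was called. Reg3g and Reg3b, which encode secreted lectins that bind bacteria and are also made by enterocytes, were the 2 with the smallest p. Reg3g had 30.9 and 38.4 CPM in AF, 216 and 237 CPM in GF, and 1576 and 686 CPM in SPF libraries. Its groups did not overlap, as for 33.6% of all genes (AF versus GF), 33.8% (GF versus SPF) and 44.6% (AF versus SPF). Its log2 fold change was -5.03 for AF versus SPF (SE 0.53, adjusted p = 0.119), -2.32 for GF versus SPF (SE 0.47, adjusted p = 0.738) and -2.71 for AF versus GF (SE 0.47, adjusted p = 1) in edgeR. SPF replicate 4, lowest in all 9 Paneth genes, thus had more Reg3g than any AF or GF library.

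Mptx2, a pentraxin gene of Paneth cells in mice that was picked here after its values were seen, had 7.15 and 8.79 CPM in AF, 18 and 7.33 CPM in GF, and 45.4 and 1.03 CPM in SPF libraries. Per 100 TPM of Lyz1 it had 3.40 and 1.97 in AF, 1.52 and 4.19 in GF, and 17 and 19.1 in SPF libraries, the last from 15 counts. Its log2 ratio was different by -2.80 in AF and by -2.83 in GF from SPF mice, and by 0.03 in AF from GF mice. Against SPF mice the exact permutation p was 0.333 for each (two-sided), the smallest that 2 against 2 libraries allow. After adjustment over the 6 comparisons made of Mmp7 and Mptx2 it was 0.4. With Lyz1 as a covariate its log2 fold change was -2.45 for AF versus SPF (SE 0.45, adjusted p = 0.0922) and -2.37 for GF versus SPF (SE 0.46, adjusted p = 0.318) in edgeR. For AF versus GF it was -0.08 (SE 0.42, adjusted p = 0.984, edgeR). Mptx2 and the comparison with Lyz1 were both chosen after the values were seen, so these p-values cannot serve as a separate test.

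Genes of the Paneth cell lineage and niche moved less. Of 18 listed 17 were tested, with median log2 fold changes of -0.17 for AF versus GF, 0.22 for GF versus SPF and 0.11 for AF versus SPF, and none was called. The Notch ligand gene Dll1 had the smallest p of these for AF versus SPF, with a log2 fold change of -1.08 (SE 0.28, adjusted p = 0.381, edgeR). Tcf7l2, which encodes a TCF factor of the Wnt pathway, had the smallest for GF versus SPF, at -0.90 (SE 0.23, adjusted p = 0.738, edgeR).

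Markers of other crypt cells moved with the 9 genes across libraries. Relative to their mean over the 6 libraries on the log2 CPM scale, the 9 genes stood at 0.24 and 1.14 in AF replicates 2 and 3, 2.74 and 0.08 in GF replicates 1 and 3, and 0.86 and -5.07 in SPF replicates 3 and 4. The median of the 12 crypt stem cell markers stood at 0.14 and 0.59 in AF, 1.32 and -0.17 in GF, and 0.74 and -2.57 in SPF libraries, so that GF replicate 1 was highest and SPF replicate 4 lowest as for the 9 genes. The 14 proliferation genes stood at -0.16 and 0.75 in AF, 1.00 and -0.33 in GF, and 1.18 and -2.64 in SPF libraries. Tuft, enteroendocrine and goblet cell markers were also low in SPF replicate 4, with medians of -2.59, -2.46 and -2.10, but were not highest in GF replicate 1. Markers of the proximal small intestine ran the other way at both ends, with medians of -0.75 in GF replicate 1 and 1.03 in SPF replicate 4. That list shares genes with the enterocyte list, which was also highest in SPF replicate 4 (0.90), so it is no separate measure of gut region. Markers of the distal small intestine stood at 0.64 in GF replicate 1 and -0.06 in SPF replicate 4, which was above AF replicate 3 (-0.29) and SPF replicate 3 (-0.18). Of the stem, proliferation, tuft, enteroendocrine, goblet, proximal and distal lists none had a member called in any comparison, and the part of crypt content or gut region in the levels of the 9 genes was not tested.

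**Figure D5:**
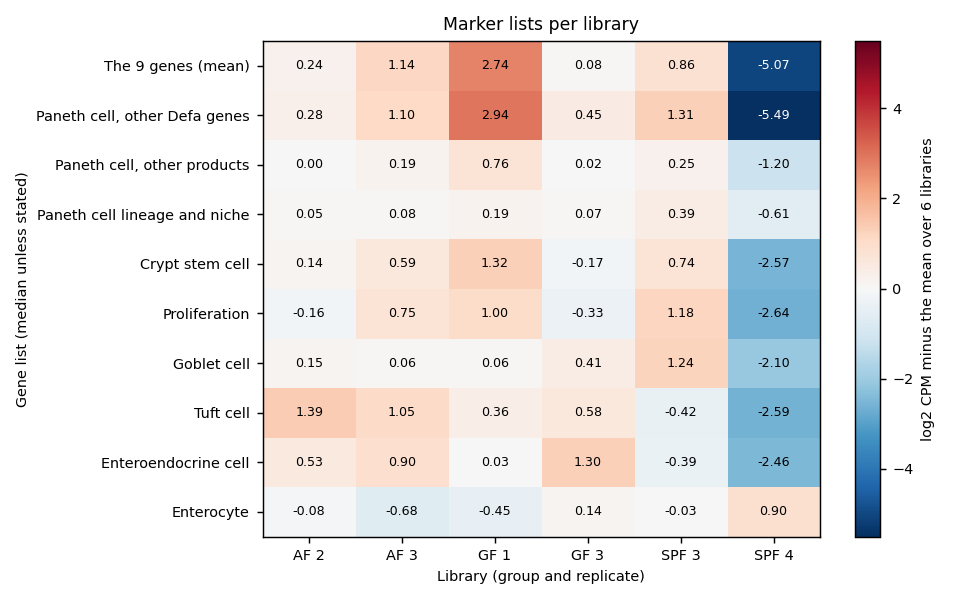
Mean of the 9 genes and medians of 9 marker lists, as log2 CPM minus the mean over 6 libraries, with lists down the page and the AF, GF and SPF libraries from left to right. SPF replicate 4 is lowest for the 9 genes (-5.07) and for each list of Paneth, stem, dividing, goblet, tuft and enteroendocrine cells, and highest for enterocytes (0.90).

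The 9 genes followed their own mean closely, with Pearson's r over the 6 libraries of 0.977 for Mmp7 and 0.988 to 0.999 for the other 8, each gene being part of that mean. The 8 other genes most like it had r of 0.9969 to 0.9999 over the same 6 libraries: Rps12, Krt19, Fam129b, Defa3, Rpl36a, Rpl39, Rps20 and Gm14851. Without SPF replicate 4 and GF replicate 1, the 2 libraries farthest from the median, r was 0.93 to 0.999 over 4 libraries. Which genes were named depended on the scaling, since only 2 of these 8 were among the 8 most like on library totals alone. Defa3 and Gm14851 lie in the Defa cluster and varied on the same scale as the 9 genes, with SDs of 2.87 and 2.65 in log2 CPM, whereas the other 6, of which 4 encode ribosomal proteins and Krt19 a keratin, had SDs of 0.75 to 0.98. Krt19, for example, had 626 and 731 CPM in AF, 1108 and 607 CPM in GF, and 709 and 181 CPM in SPF libraries. An r over 0.95 was reached by 5.56% of the 13644 genes, all points sharing the same 6 libraries and their scaling.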

How the data were processed

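RNA was measured in 6 libraries of sorted small intestinal epithelial cells, prepared with a TruSeq kit from total RNA per the labels. The tools listed by the submitters' processing notes are edgeR 3.16.5, RSEM and STAR 2.5.2b, and the build is GRCm38/mm10. No source used here gives the annotation release or the strand setting. Per the file headers, the authors deposited RSEM expected counts, unscaled between libraries, and TPM, which corrects for effective length and sums to the same total in each library. The deposited tables also give a posterior mean count and its standard deviation. Symbols and coordinates (1-based) come from GENCODE M21 (GRCm38), which named 51633 of the 51912 gene IDs.

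Expected counts were rounded, 23.5% of the values above 0 not being whole (tolerance 0.001). filterByExpr left 13644 genes, and all 9 described passed. Groups, taken from the sample labels, were compared in a single quasi-likelihood fit of edgeR to all 6 libraries (F test), with TMM scaling (factors 0.791 to 1.41) and Benjamini-Hochberg adjustment over all tested genes at 0.05. This left 3 residual degrees of freedom and a biological coefficient of variation of 0.368. CPM are on TMM-scaled totals, and log2 CPM have a prior count of 2. A standard error is the size of the log2 fold change over the square root of its F.

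The genes and lists were chosen with earlier results of these data known. Named genes were all 9, at most 2 per list with the smallest p (up to 4 where called) and the 8 most like the 9 with a mean of at least 5 CPM, predicted genes outside the Defa cluster left out. Lyz2, Mptx2 and Defa23 were named outside this rule, after their values were seen. The analysis ran in R 4.3.3 (with limma 3.58.1, edgeR 4.0.16 and DESeq2 1.42.0) and Python 3.11.15 (with Biopython 1.88). Other settings tried were the Wald test of DESeq2, the likelihood ratio test of edgeR, other scalings and filters, limma on log2(TPM + 1) and log2(TPM + 0.1), posterior mean counts, 2 groups only and each library left out.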

Additional observations from a re-analysis of the deposited data

How the results depend on the processing

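No paired analysis was possible because the groups compared share fewer than 2 replicate numbers. None of the 9 genes was called in any comparison by the quasi-likelihood or likelihood ratio test of edgeR, the Wald test of DESeq2 or limma on TPM, under other scalings, a filter of 1 CPM in 2 libraries, posterior mean counts, 2 groups only or with any 1 library left out. The exception was the fit with no low-count filter. It called 3 of the 9 for AF versus GF (Mmp7, Defa21, Defa22), 8 for GF versus SPF (all but Mmp7), 2 for AF versus SPF (Ang4, Defa17) and 9 for any difference, among 264 (1.16%), 484 (2.13%), 804 (3.53%) and 937 (4.12%) of the 22763 genes in that fit, against 2, 2, 6 and 4 with the filter. DESeq2 called 49, 81 and 262 genes, the likelihood ratio test 53, 97 and 298, limma on log2(TPM + 1) 9, 5 and 8 and on log2(TPM + 0.1) 5, 4 and 7, library totals alone 4, 0 and 7, and the fits to 2 groups 8, 0 and 2. The cause was not tested.

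With 1 library left out, genes called ranged from 0 to 9 for AF versus GF, 0 to 369 for GF versus SPF and 0 to 625 for AF versus SPF, the highest counts each without SPF replicate 3. The median log2 fold change of the 9 genes then ranged from -1.85 to 0.81 for AF versus GF, 0.35 to 6.97 for GF versus SPF and 0.21 to 5.92 for AF versus SPF. For AF versus GF single genes ranged from -1.85 to 0.92 (Lyz1), -2.15 to 0.24 (Mmp7), -1.56 to 0.83 (Ang4), -1.63 to 0.81 (Itln1), -1.67 to 0.93 (Defa17), -2.55 to 1.10 (Defa21), -2.70 to 0.40 (Defa22), -1.74 to 0.75 (Defa24) and -2.13 to 0.34 (Defa30), each above 0 without GF replicate 1. For GF versus SPF the ranges that crossed 0 were -0.62 to 6.25 (Mmp7), -0.64 to 11.02 (Defa21) and -0.12 to 9.78 (Defa22), and for AF versus SPF -1.35 to 4.84 (Mmp7), -0.53 to 9.35 (Defa21), -0.71 to 7.92 (Defa22) and -0.0378 to 6.00 (Defa30). The upper values of Defa21 and Defa22 depend on the prior count, since SPF replicate 4 had under 3 counts of each.

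For AF versus SPF library totals alone gave -0.000275 for Defa21 and -0.18 for Defa22, and Mmp7 was 0.40 in limma on log2(TPM + 1) and 1.07 on log2(TPM + 0.1). With Lyz1 as a covariate, an alternative chosen after seeing the data, the log2 fold changes whose sign turned were 0.0360 (Ang4), 0.11 (Defa17) and 0.16 (Defa21) for AF versus GF, -1.09 (Mmp7), -0.0565 (Itln1), -0.71 (Defa21) and -0.33 (Defa22) for GF versus SPF, and -0.18 (Itln1), -0.55 (Defa21), -0.69 (Defa22), -0.0203 (Defa24) and -0.31 (Defa30) for AF versus SPF. Over these settings, the covariate apart, 398 of 432 single-gene values kept their direction and side of the threshold, 13 passed it and 21 turned. Shares computed from TPM in place of counts kept Defa24 first at 55.2 to 74%. Of the 8 genes most like the 9, 2 were shared with a ranking on library totals alone. Depth limits Defa21, Defa22 and Mmp7 in SPF replicate 4, with 5 counts or fewer each.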
